A study of Mus musculus with 6 samples.

Results

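The genes described here are 41 signal transducers that carry messages from growth factor and cytokine receptors into the cell, along the Ras, ERK, PI3K and STAT routes. They were listed by name, and a gene was taken where a probe set carried that single symbol in the platform annotation, with the brightest probe set kept for each gene. Of the 41, 38 had such a probe set, and all 38 passed the filter on low intensity, among 17145 genes tested in all. Hras, Mapk3 and Rps6ka1 were paired with no probe set in the annotation used and were not analysed here.

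Gene expression was measured on Affymetrix Mouse Gene 1.0 ST arrays, 3 of 8KR cells and 3 of wild type cells. Both are NIH/3T3 cells, a mouse embryonic fibroblast line, stably transfected with HA-tagged mouse RPB1, the catalytic subunit of RNA polymerase II. In 8KR cells the K7 residues, lysines at the last position of certain repeats in the RPB1 tail, were replaced by arginine, which cannot be acetylated, and wild type cells carried the unchanged construct. Both were grown in medium with 10% bovine calf serum and 2 µg/ml α-amanitin, a toxin that blocks the cells' own polymerase, so that the comparison asks how gene expression differs when these lysines cannot be acetylated. Whether the replicates of a group came from 1 transfected population is not given, and p-values then measure only the spread between these samples. The labels name no added growth factor, so the values are RNA levels in serum, and neither protein nor phosphorylation was measured.

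In these pathways an activated receptor is read by adaptors, which bring an exchange factor to Ras. Ras loaded with GTP switches on the Raf, MEK and ERK kinases in turn, and ERK and its effector kinases phosphorylate transcription factors of the immediate early genes. The same receptors feed PI3K and Akt, which promote growth and survival, and phospholipase C and protein kinase C. Cytokine receptors bind the Jak kinases, which activate the Stat factors. GTPase-activating proteins and Cbl ubiquitin ligases turn signals down.

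The 6 arrays were alike in scale, with median log2 intensities from 4.49 to 4.54 over all 35557 probe sets, before the filter on low intensity. Polr2a, the gene for RPB1, read 12.13 ± 0.01 in 8KR cells and 12.10 ± 0.01 in wild type cells (SD, n = 3 each), and the probe set cannot tell the construct from the cells' own transcript. Of 16 fibroblast markers, 14 lay above the array median, and 3 fell in 8KR cells, namely Col3a1, Pdgfra and Dcn, with log2 differences of -0.52, -0.75 and -3.37. The log2 of the summed fibroblast marker level ran from 14.02 to 14.05 in 8KR cells and from 14.10 to 14.15 in wild type cells, with Fap and Lum at the floor. None of the markers of epithelial, endothelial, leukocyte, muscle, adipocyte, neural and glial cells was called. The log2 summed levels of 2 of these lists did not overlap between the groups. Muscle markers ran from 7.23 to 7.28 in 8KR cells and from 7.41 to 7.50 in wild type cells, and neural and glial markers from 6.58 to 6.65 in 8KR cells and from 6.45 to 6.55 in wild type cells. The part of these markers in the results was not tested.

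Of the 38 members tested, 3 differed between 8KR and wild type cells at an adjusted p under 0.05 by limma. Sos1, which loads Ras with GTP, rose, and Map2k1, the gene for the kinase MEK1, and Stat3, a transcription factor activated by cytokines, fell. The other 35 did not pass. The 3 calls make 7.89% of the members, against 5.39% of all genes tested. By direction, 2.63% of the members were higher in 8KR cells, against 2.33% of all genes, and 5.26% were lower, against 3.06%. At an unadjusted p under 0.05 there were 10 members, or 26.3%, against 21.8% of all genes, and 4 of these had positive and 6 negative differences. The arrays of both groups did not overlap in 15 members, or 39.5%, against 29.7% of all genes. The median log2 difference of the members was -0.03 and that of all genes 0.01, and the median size without sign was 0.143 and 0.140. A single call is 2.63% of 38 members, and nothing is read from these shares about the members as a group.

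**Figure D1:**
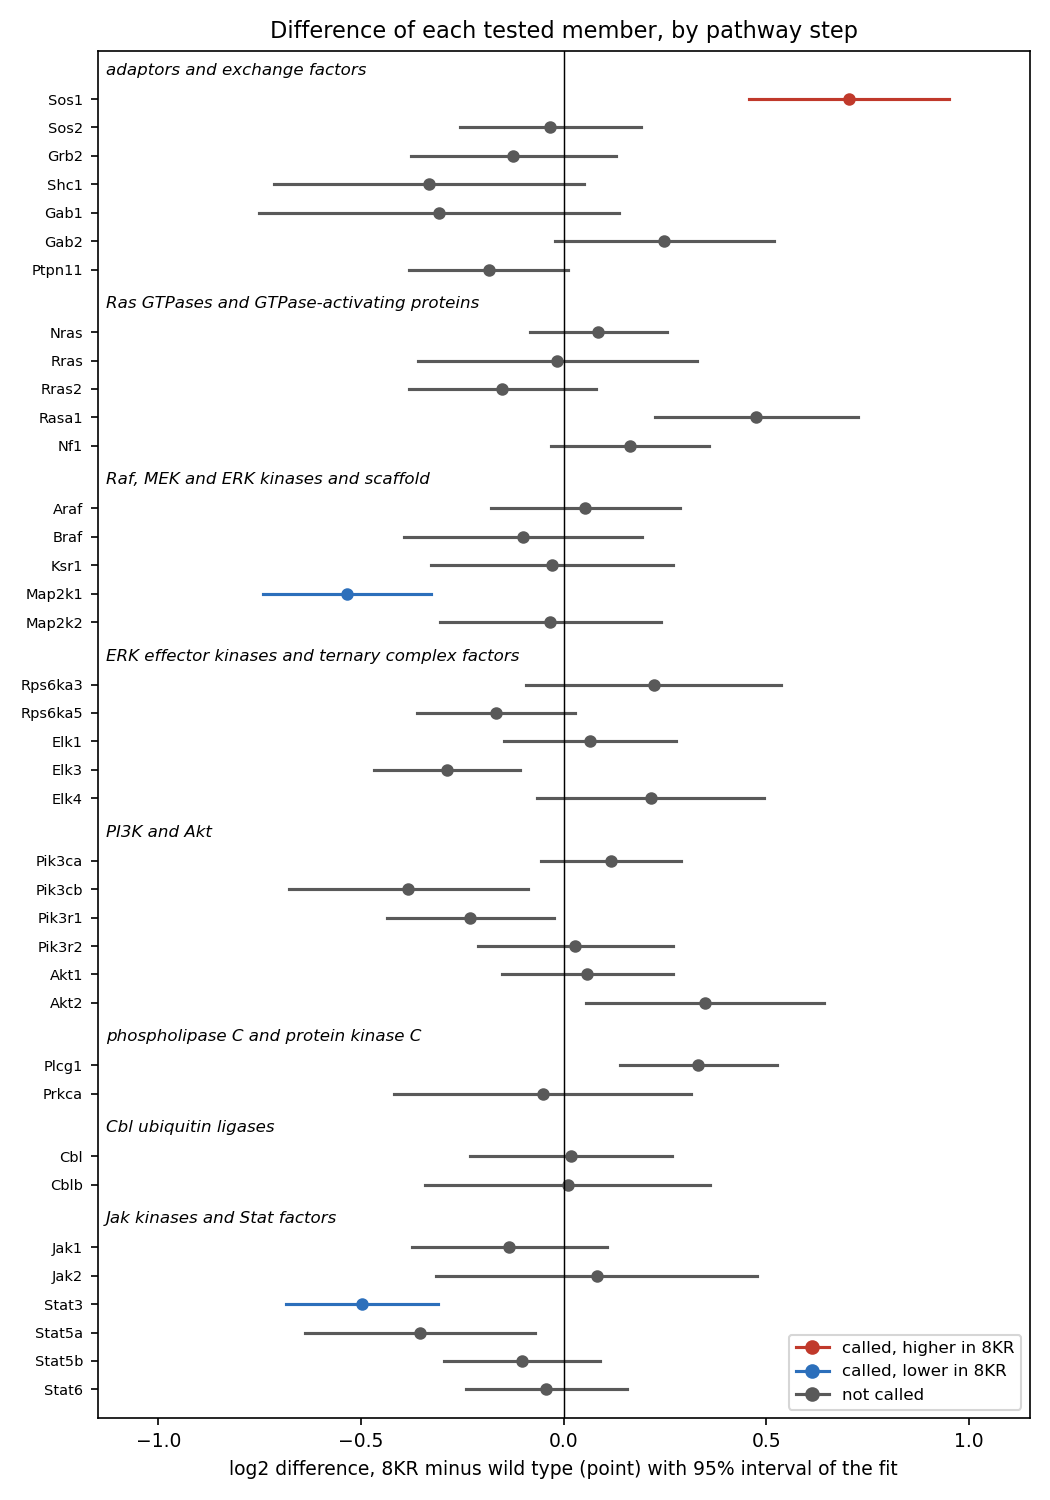
Log2 difference of each of the 38 members, 8KR minus wild type, in order of pathway step, with points for the fitted difference and lines for its 95% interval, not adjusted for the number of genes. Sos1 lies highest at 0.70, Map2k1 lowest at -0.53 and Stat3 at -0.50, and all 38 intervals lie within 1 log2 unit of 0.

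A difference of 1 log2 unit is a 2-fold change. The 95% intervals of all 35 members that did not pass lay within 1 log2 unit of 0, and those of 26 lay within 0.5, the widest reaching 0.753. Differences inside these intervals remain possible, and a p that missed the threshold does not show that a gene was unchanged. Of the 38 members, 37 were brighter than the array median and Rps6ka5 was dimmer. The plot of differences against intensity shows where the members lie among all genes.

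**Figure D2:**
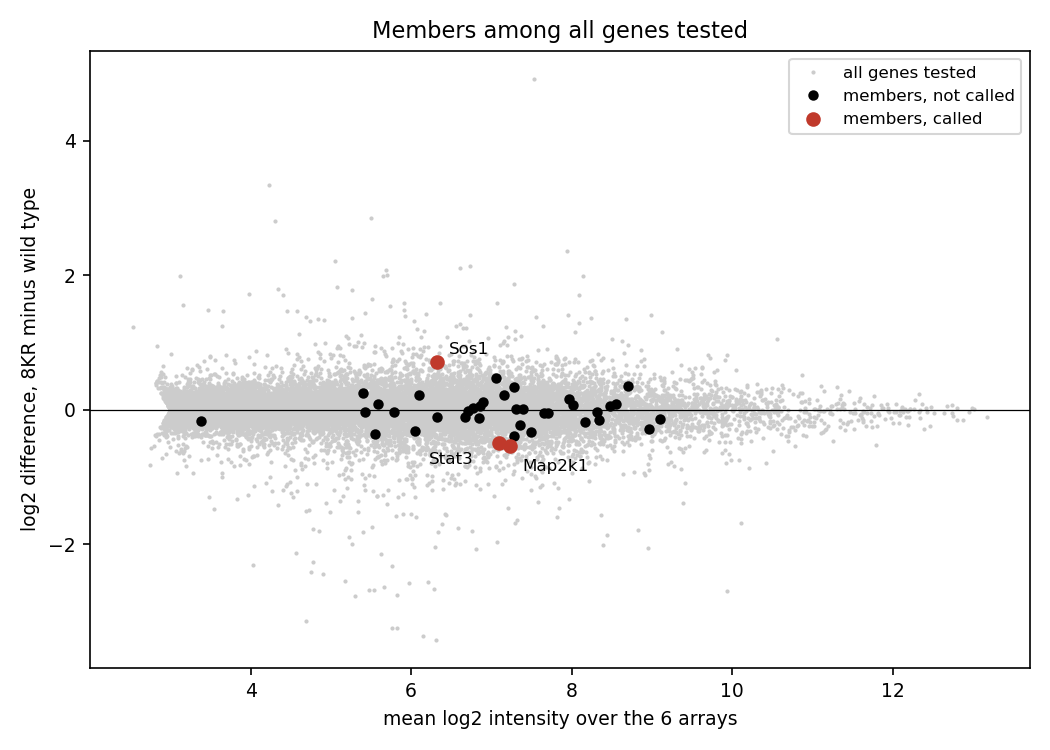
Log2 difference, 8KR minus wild type, against the mean log2 intensity over the 6 arrays for all 17145 genes tested (grey) and for the members (black, or red where called). Sos1 at 0.70, Map2k1 at -0.53 and Stat3 at -0.50 stand apart from the other members, which lie between -0.38 and 0.48.

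The sequences just upstream of the 3 called members are shown because they are the promoters at which the mutant or wild type polymerase starts these genes. Each is the 250 bases before the start site, read 5′ to 3′ on the gene's strand, from RefSeq on GRCm38.p6, with capitals marking each GC box, the letters GGGCGG on either strand, which bind Sp1 family factors.
Sos1 promoter, chr17:80480454-80480703, minus strand: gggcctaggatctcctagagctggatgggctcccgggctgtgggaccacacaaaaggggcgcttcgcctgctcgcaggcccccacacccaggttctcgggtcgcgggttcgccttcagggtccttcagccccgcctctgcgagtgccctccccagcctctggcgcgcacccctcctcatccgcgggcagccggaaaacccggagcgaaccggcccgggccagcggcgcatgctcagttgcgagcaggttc
Map2k1 promoter, chr9:64253606-64253855, minus strand: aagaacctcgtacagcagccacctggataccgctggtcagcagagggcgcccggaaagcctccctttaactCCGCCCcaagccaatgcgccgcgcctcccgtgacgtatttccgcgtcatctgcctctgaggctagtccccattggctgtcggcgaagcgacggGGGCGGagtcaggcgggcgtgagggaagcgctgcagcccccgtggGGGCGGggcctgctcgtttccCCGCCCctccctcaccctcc
Stat3 promoter, chr11:100939541-100939790, minus strand: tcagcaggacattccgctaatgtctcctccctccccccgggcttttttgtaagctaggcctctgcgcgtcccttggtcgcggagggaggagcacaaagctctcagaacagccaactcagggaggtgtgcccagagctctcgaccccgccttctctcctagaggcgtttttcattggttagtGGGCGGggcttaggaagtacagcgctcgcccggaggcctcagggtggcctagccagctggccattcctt

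The Sos1 window held no GC box, although 70.4% of its bases were G or C. The Map2k1 window held 4, beginning 179, 86, 41 and 20 bases before the start, and the Stat3 window held 1, at 69 bases. The Map2k1 window was 68.4% G or C and the Stat3 window 60.8%, against medians of 61.6% over member windows and 52.4% over all promoter windows. A promoter window was given for 36 members. A GC box was found in 33 of their 51 windows, or 64.7%, against 32.7% of 32851 windows of all genes, and the part of the higher G and C content of member windows in this share was not tested. None of the 3 windows held a TATA box (TATAAA), an E box (CACGTG), a cyclic AMP element (TGACGTCA), an ETS core (CCGGAAG) or a serum response element of the CArG form, searched on both strands, and none of these letter strings contains another. A TATA box was found in 2 of the 51 member windows, or 3.92%, against 12.4% of all windows. An E box was found in 1, or 1.96%, against 6.02%, and a cyclic AMP element in 3, or 5.88%, against 1.55%. An ETS core was found in 6 member windows, or 11.8%, against 6.91%, and a CArG element in 0% against 1.47%. Some members had more than 1 window, and nothing is read from these small counts. A match is a description of letters and not a site of binding.

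Among the adaptors and exchange factors, Sos1 was the member that rose. It read 6.62, 6.63 and 6.76 on the 8KR arrays, against 6.14, 5.88 and 5.88 on the wild type arrays. Every 8KR array lay above every wild type array. The means were 6.67 ± 0.08 in 8KR cells and 5.97 ± 0.15 in wild type cells (SD, n = 3 each), a log2 difference of 0.70 ± 0.10 (SE), or 1.63-fold, with limma's adjusted p = 0.0216. Its paralog Sos2, which has the same exchange activity, read 5.66, 5.85 and 5.80 on the 8KR arrays, against 5.77, 5.92 and 5.73 on the wild type arrays, with the groups overlapping. The interval of the Sos2 difference ran from -0.26 to 0.19. The log2 ratio of Sos1 to Sos2 on each array was 0.74 higher in 8KR cells, with no overlap, and its exact two-sided permutation p of 0.1 is the smallest that 3 arrays against 3 allow. The call for Sos1 held without wild type replicate 1 (adjusted p = 0.0388, limma). Without 8KR replicate 1, 2 or 3 it was lost, with adjusted p of 0.0747, 0.0746 and 0.0782 by limma, and without wild type replicate 2 or 3 with 0.0790 and 0.0792.

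The other 5 adaptors did not pass. Shc1, which binds phosphorylated receptors, read 7.13, 7.20 and 7.66 on the 8KR arrays, against 7.78, 7.59 and 7.63 on the wild type arrays, so that the third 8KR array lay among the wild type values and the other two below them. Its log2 difference was -0.33 (adjusted p = 0.315, limma). The docking proteins Gab1 and Gab2 differed by -0.31 and 0.25, with means of 5.90 ± 0.29 and 5.52 ± 0.10 in 8KR cells, against 6.21 ± 0.22 and 5.27 ± 0.16 in wild type cells (SD, n = 3 each). Grb2, the adaptor that carries Sos to the receptor, differed by -0.12. Ptpn11, the gene for the phosphatase SHP2, which is needed for full Ras activation, averaged 8.07 ± 0.06 in 8KR cells and 8.26 ± 0.08 in wild type cells (SD, n = 3 each) without overlap, with an adjusted p of 0.281 by limma.

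None of the 5 Ras GTPases and GTPase-activating proteins passed, and Rasa1 came closest. Rasa1 encodes p120 RasGAP, which returns Ras to its inactive form. It read 7.25, 7.35 and 7.27 on the 8KR arrays, against 6.86, 6.95 and 6.64 on the wild type arrays. All 8KR values lay above all wild type values, and the log2 difference was 0.48 ± 0.10 (SE) with limma's adjusted p = 0.0634. Nf1, the gene for neurofibromin, another GTPase-activating protein, averaged 8.05 ± 0.09 in 8KR cells and 7.89 ± 0.04 in wild type cells (SD, n = 3 each), without overlap and with an adjusted p of 0.329 by limma. Of the GTPases themselves, Nras differed by 0.09, Rras by -0.02 and Rras2 by -0.15, with adjusted p by limma from 0.448 to 0.968.

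Of the 5 genes of the Raf, MEK and ERK tier, Map2k1 was the 1 that fell. It read 7.03, 6.95 and 6.92 on the 8KR arrays, against 7.39, 7.58 and 7.54 on the wild type arrays. The highest 8KR value lay below the lowest wild type value. The means were 6.97 ± 0.06 in 8KR cells and 7.50 ± 0.10 in wild type cells (SD, n = 3 each), a log2 difference of -0.53 ± 0.09 (SE), or 0.691 of the wild type level, with limma's adjusted p = 0.0284. Map2k2, the gene for the closely related kinase MEK2, read 8.34, 8.34 and 8.24 on the 8KR arrays, against 8.31, 8.17 and 8.54 on the wild type arrays, with a log2 difference of -0.03. The log2 ratio of Map2k1 to Map2k2 differed by -0.50 between 8KR and wild type cells, with no overlap and an exact permutation p of 0.1. The Map2k1 call was lost when any array was left out. Without 8KR replicate 1, 2 or 3 the adjusted p by limma was 0.0798, 0.0983 and 0.0987, and without wild type replicate 1, 2 or 3 it was 0.0565, 0.0898 and 0.0969.

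The Raf kinases above MEK gave small differences. Araf differed by 0.05 and Braf by -0.10, with means of 6.88 ± 0.15 and 6.62 ± 0.13 in 8KR cells, against 6.83 ± 0.04 and 6.72 ± 0.17 in wild type cells (SD, n = 3 each). Ksr1, a scaffold that holds Raf and MEK together, differed by -0.03. The adjusted p of these genes ran from 0.711 to 0.928 by limma.

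None of the 5 ERK effector kinases and ternary complex factors passed. Elk3, an ETS factor that acts with the serum response factor, read 8.82, 8.83 and 8.82 on the 8KR arrays, against 9.09, 9.05 and 9.19 on the wild type arrays. The groups did not overlap, and the log2 difference was -0.29 ± 0.07 (SE) with limma's adjusted p = 0.0954. The other 2 ternary complex factors, Elk1 and Elk4, had differences of the opposite sign, 0.06 and 0.21, and neither passed. The log2 ratio of Elk3 to Elk1 differed by -0.35 between 8KR and wild type cells, with no overlap and an exact permutation p of 0.1. The kinases Rps6ka3 (RSK2), which ERK activates, and Rps6ka5 (MSK1), which phosphorylates histone H3, differed by 0.22 and -0.17. Rps6ka5 was dim, at 3.29 ± 0.10 in 8KR cells and 3.46 ± 0.02 in wild type cells (SD, n = 3 each).

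**Figure D3:**
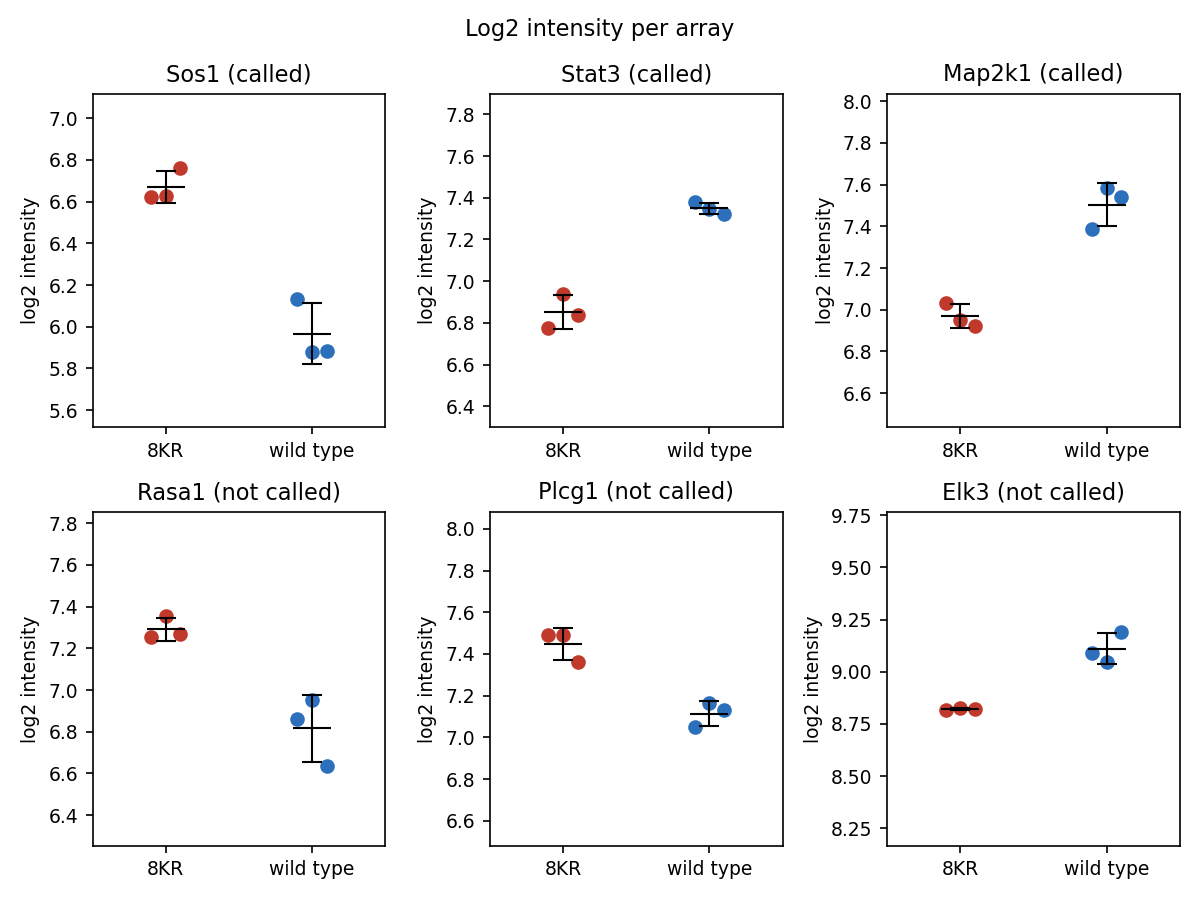
Log2 intensity of 6 members on each array, with 8KR cells in red and wild type cells in blue. Points are arrays, long bars means and short bars 1 SD either side (n = 3 each). The genes are the 3 called members and the 3 uncalled members with the smallest adjusted p by limma. Each panel spans the same number of log2 units. Sos1, Rasa1 and Plcg1 are higher in 8KR cells and Stat3, Map2k1 and Elk3 lower. The points are apart in all 6 genes, which were picked by their small p. Groups did not overlap in 29.7% of all genes.

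None of the 6 PI3K and Akt genes passed. An unadjusted p under 0.05 was found in 3 of the 6, against 21.8% of all genes, and groups that did not overlap in 4 of the 6, against 29.7% of all genes, and with 6 genes nothing is read from these counts. Pik3cb, a catalytic subunit of PI3K, read 7.18, 6.98 and 7.10 on the 8KR arrays, against 7.65, 7.49 and 7.27 on the wild type arrays. Its log2 difference was -0.38, with an interval from -0.68 to -0.09 and limma's adjusted p = 0.154. Pik3ca, the other catalytic subunit on the list, averaged 6.96 ± 0.02 in 8KR cells and 6.84 ± 0.05 in wild type cells (SD, n = 3 each), a difference of 0.12. The log2 ratio of Pik3ca to Pik3cb was 0.50 higher in 8KR cells, with no overlap and an exact permutation p of 0.1.

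The regulatory subunit Pik3r1 read 7.18, 7.25 and 7.27 on the 8KR arrays, against 7.55, 7.35 and 7.49 on the wild type arrays, a difference of -0.23 (adjusted p = 0.206, limma). Pik3r2, a second regulatory subunit, differed by 0.03. Akt2, a kinase of insulin signalling, read 9.01, 8.78 and 8.82 on the 8KR arrays, against 8.71, 8.36 and 8.50 on the wild type arrays. The lowest 8KR value lay just above the highest wild type value, and the log2 difference was 0.35 (adjusted p = 0.185, limma). A second, dimmer probe set of Akt2 averaged 7.70 in 8KR cells and 7.49 in wild type cells, a difference of 0.21 (adjusted p = 0.337, limma), and no other member had more than 1 probe set. Akt1 differed by 0.06, with an interval from -0.15 to 0.27.

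Plcg1, the phospholipase C that receptor tyrosine kinases bind, read 7.49, 7.49 and 7.36 on the 8KR arrays, against 7.05, 7.16 and 7.13 on the wild type arrays. The groups did not overlap, and the log2 difference was 0.33 ± 0.08 (SE), which did not pass (adjusted p = 0.0794, limma). Prkca, a protein kinase C switched on by the products of that phospholipase, differed by -0.05. The ubiquitin ligases Cbl and Cblb, which send active receptors to be degraded, averaged 7.32 ± 0.11 and 7.40 ± 0.10 in 8KR cells, against 7.30 ± 0.13 and 7.39 ± 0.26 in wild type cells (SD, n = 3 each). Their differences of 0.02 and 0.01 were smaller than the spread between arrays, and with arrays centred on their medians they were -0.01 and -0.02.

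Of the 6 Jak and Stat genes, Stat3 fell. It read 6.78, 6.94 and 6.84 on the 8KR arrays, against 7.38, 7.35 and 7.32 on the wild type arrays. The wild type arrays lay close together, and all were above the highest 8KR array. The means were 6.85 ± 0.08 in 8KR cells and 7.35 ± 0.03 in wild type cells (SD, n = 3 each), a log2 difference of -0.50 ± 0.08 (SE), or 0.708 of the wild type level, with limma's adjusted p = 0.0263. The call was lost when any array was left out. Without 8KR replicate 1, 2 or 3 the adjusted p by limma was 0.0904, 0.0643 and 0.0912, and without wild type replicate 1, 2 or 3 it was 0.0902, 0.0839 and 0.0841.

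Stat5a, which prolactin and other cytokines activate, read 5.46, 5.42 and 5.23 on the 8KR arrays, against 5.62, 5.91 and 5.64 on the wild type arrays. The groups did not overlap, but the difference of -0.35 did not pass (adjusted p = 0.167, limma). Its close paralog Stat5b differed by -0.10, and the log2 ratio of Stat5a to Stat5b by -0.25, with no overlap and an exact permutation p of 0.1. The sequences of these paralogs are much alike, and whether their probe sets cross-hybridise was not tested. Stat6, the factor of interleukin-4 signalling, differed by -0.04. The receptor-bound kinases Jak1 and Jak2 averaged 9.04 ± 0.12 and 5.63 ± 0.25 in 8KR cells, against 9.17 ± 0.10 and 5.55 ± 0.20 in wild type cells (SD, n = 3 each), and neither passed.

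**Figure D4:**
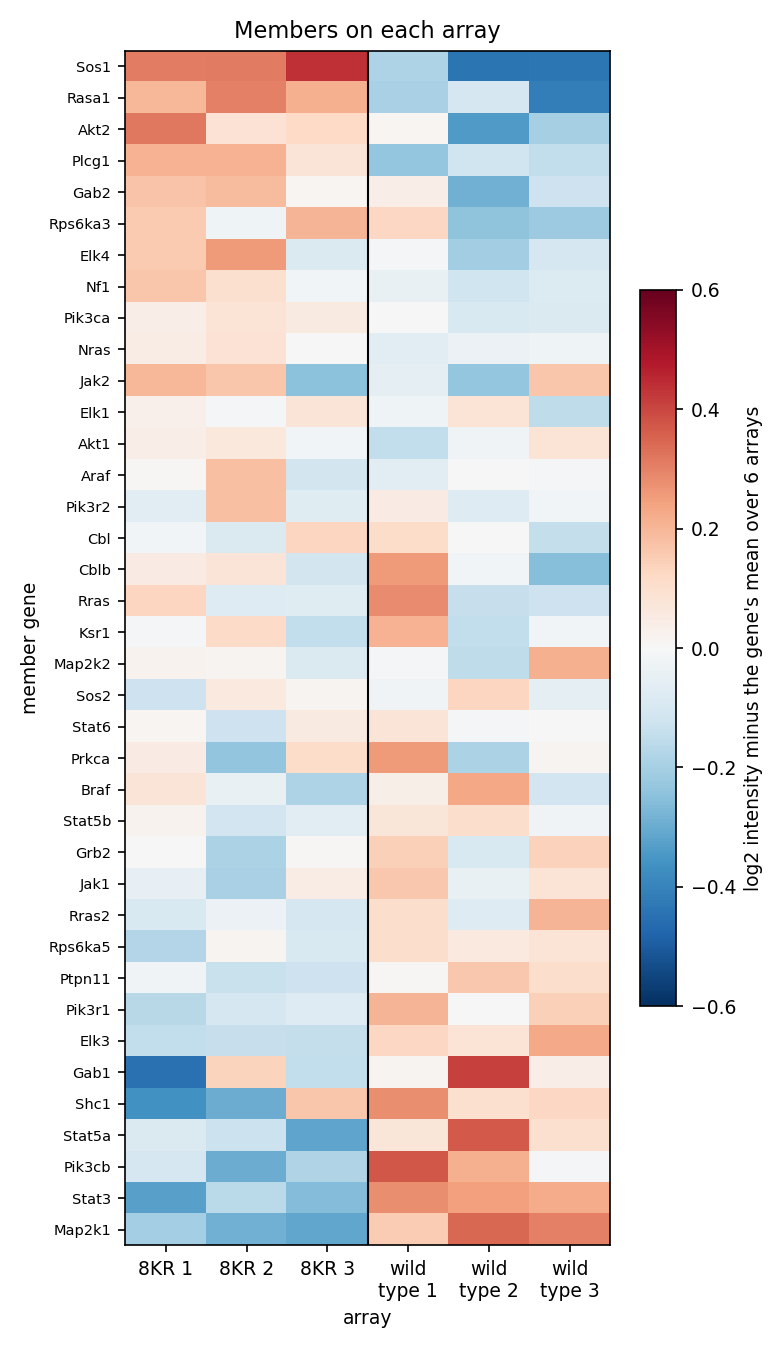
Log2 intensity of each member on each of the 6 arrays, minus the gene's mean over the arrays, with red above and blue below that mean, genes ordered by their difference and the 8KR arrays left of the line. Sos1, Rasa1 and Plcg1 are among the members above their means on all 8KR arrays. Map2k1, Stat3, Pik3cb, Stat5a and Elk3 are among those below them. The share of all genes with such a pattern was not computed.

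Paralogs in the same step were compared by the log2 ratio of the partners on each array. In 7 of 12 pairs, chosen after their values were seen, this ratio did not overlap between 8KR and wild type cells, namely Sos1 to Sos2, Gab1 to Gab2, Map2k1 to Map2k2, Elk3 to Elk1, Pik3ca to Pik3cb, Pik3r1 to Pik3r2 and Stat5a to Stat5b. The remaining pairs, Rras to Rras2, Araf to Braf, Akt2 to Akt1, Cbl to Cblb and Jak1 to Jak2, overlapped, with exact permutation p from 0.3 to 1. No pair could go below 0.1 in this design, none passes after adjustment over 12 pairs, and the share of other gene pairs that do not overlap was not computed.

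The genome neighbours of the called members were read from the order of genes in RefSeq, 5 tested genes on each side. Around Sos1, 2 neighbours rose in 8KR cells, Pkdcc by 0.94 and Eml4 by 0.75 on the log2 scale (adjusted p = 0.0103 and 0.0364, limma), and among all genes 3.6% had 2 or more neighbours called higher. Next to Map2k1, Snapc5 fell with a log2 difference of -1.82 (adjusted p = 0.00133, limma). Snapc5 encodes a subunit of a factor complex that acts in the transcription of small nuclear RNA genes. Of the other Map2k1 neighbours, Rab11a fell with -0.37 (adjusted p = 0.0418, limma), while Snord16a rose by 0.66 (adjusted p = 0.0184, limma). Among all genes, 5.61% had 2 or more neighbours called lower. Members that were not called also had called neighbours. Around Jak1, 2 were called higher (Cachd1 and Pde4b), and around Pik3ca, 2 were called lower (Zmat3 and Mfn1). Stat5b, Stat5a and Stat3 stand side by side, and the tested neighbours of Stat3 had a median difference of -0.20, with none called. Rasa1 had 10 of 10 neighbours with a positive difference, as had Pik3r1, a count that 1.02% of all genes reached. The difference of Pik3r1 itself was -0.23, and neither Rasa1 nor Pik3r1 was called.

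Other genes of the same pathways were taken from a list of 129, of which 113 were tested. Of these, 2 rose and 8 fell in 8KR cells, and 103 did not pass. The 10 calls make 8.85%, against 5.39% of all genes, with 1.77% higher against 2.33% and 7.08% lower against 3.06%. The 113 genes were brighter, with a median log2 intensity of 6.39 against 5.40 for all genes. With a floor at a group mean above 5.0, 17.6% of all genes and 14 of the other pathway genes were called. That floor changes the fit and the adjustment, so 17.6% is not a share to set against 8.85%. The part of brightness in these shares was not tested, and nothing is read from them about the 113 genes as a group. The median log2 difference of the 113 was 0.01.

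Among the Ras GTPases and their regulators, 4 of 14 further genes fell, against 3.06% of all genes, and nothing is read from this count. Without the filter on low intensity 1 of the 4, Rap2a, passed, and Mras, Rheb and Rit1 had adjusted p of 0.0513, 0.0597 and 0.0609 by limma. Rap2a, a small GTPase of the Ras family, read 6.32, 6.37 and 6.52 on the 8KR arrays, against 7.58, 7.31 and 7.62 on the wild type arrays, a log2 difference of -1.10 (adjusted p = 0.00835, limma). Mras, a GTPase that acts with Shoc2 on Raf, averaged 7.05 ± 0.28 in 8KR cells and 8.04 ± 0.22 in wild type cells (SD, n = 3 each; adjusted p = 0.0400, limma). Mras lies within 5 tested genes of Pik3cb. Rit1, a Ras relative, and Rheb, the activator of mTORC1, had log2 differences of -0.70 and -0.48 (adjusted p = 0.0463 and 0.0432, limma). None of the 5 member genes of this step passed.

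In the PI3K step, 3 of 30 further genes were called. Pik3r3, a regulatory subunit related to Pik3r1, read 5.12, 4.91 and 4.77 on the 8KR arrays, against 6.20, 6.31 and 6.12 on the wild type arrays. Its log2 difference of -1.28 was the lowest among the 113 genes (adjusted p = 0.00599, limma), against -0.23 for Pik3r1 and 0.03 for Pik3r2. Foxo3, a transcription factor that Akt keeps out of the nucleus, had a difference of -0.65 (adjusted p = 0.0182, limma), and Pik3c2a, a class II PI3K, rose by 0.45 (adjusted p = 0.0325, limma). Prkd1, a kinase below protein kinase C, was the 1 of 15 further genes of its step to pass, with means of 5.09 in 8KR cells and 5.94 in wild type cells (adjusted p = 0.0198, limma).

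In the Jak and Stat step, 2 of 20 further genes were called. Osmr, a receptor for oncostatin M, which signals through Stat3, read 5.83, 5.90 and 5.90 on the 8KR arrays, against 7.07, 6.95 and 6.72 on the wild type arrays, a log2 difference of -1.04 (adjusted p = 0.00851, limma). Socs4, of the family that restrains cytokine signals, rose by 0.48 (adjusted p = 0.0230, limma). No further gene was called among 15 adaptors, 11 of the Raf and MEK tier, 4 ERK effectors and 4 Cbl relatives, and Srf, the serum response factor, differed by 0.55 with limma's adjusted p = 0.0548. Pik3r3, Rap2a and Osmr kept their calls with each array left out in turn, while the calls of Rit1, Rheb, Pik3c2a and Socs4 were lost in all 6 of these fits, with adjusted p by limma from 0.0695 to 0.139. Mras kept its call only without 8KR replicate 2, and Foxo3 and Prkd1 only without wild type replicate 2, and without each other array their adjusted p ran from 0.0582 to 0.124 by limma.

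**Figure D5:**
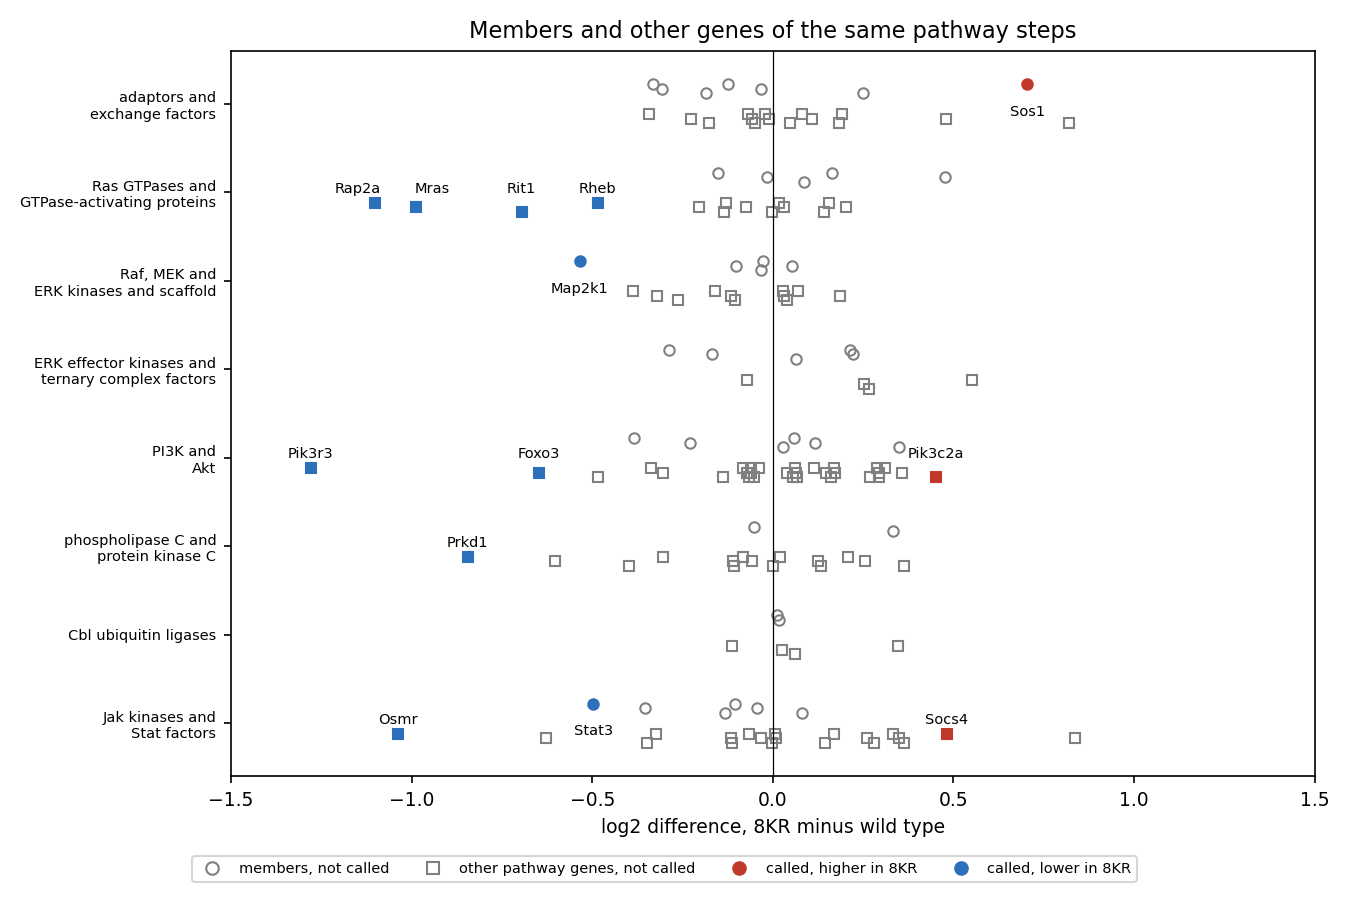
Log2 difference, 8KR minus wild type, of the 38 members (circles) and 113 other pathway genes (squares) by step, filled red where called higher in 8KR cells and blue where called lower. The called members Sos1 at 0.70, Map2k1 at -0.53 and Stat3 at -0.50 lie nearer 0 than Pik3r3 at -1.28, Rap2a at -1.10 and Osmr at -1.04.

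The number of members called moved with which probe sets entered the fit and with how the variance was modelled. With the floor, and with only single-symbol probe sets, the members' differences stayed the same. Fewer probe sets then entered the variance moderation and the adjustment. With a floor at a group mean above 5.0, 37 members remained and 6 were called, or 16.2%, against 17.6% of all genes, and with a trend of the variance on intensity 6 were called, or 15.8%, against 8.91%. With only single-symbol probe sets, and with the mean over a gene's probe sets, 5 were called, or 13.2%, against 9.55% and 10.1%. The added members were Rasa1 and Plcg1 in all 4 of these settings, and Elk3 in the first 2.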

How the data were processed

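RNA of 6 samples was hybridised to Affymetrix Mouse Gene 1.0 ST arrays, and samples were grouped by the genotype in their labels. The authors deposited each array as normalized log2 intensity values. By the submitters' processing notes, Affymetrix Power Tools 1.12.0 was used. How the arrays were normalized is not given in the sources used, and so the compression of low signals is unknown.

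From these values, 7014 of 35557 probe sets whose mean was not above 3.0 in either group were left out, and 28543 stayed. A linear model of genotype alone, with 3 arrays against 3, was fitted to these by limma 3.58.1 (R 4.3.3) with moderated variances. P-values were Benjamini-Hochberg adjusted over all of them, and a gene was called at an adjusted p under 0.05. Symbols came from the platform annotation, updated through RefSeq GRCm38.p6, which also gave promoter sequences and gene order. In simulated data with 28543 probe sets, 50 were changed at each log2 difference and the rest were left unchanged. At differences of 0.5, 1, 2 and 3, 3, 29, 42 and 46 of 50 were recovered, and 5 unchanged ones were called. The changed share was smaller than the 5.39% of genes called in the real data. The adjustment was therefore not alike, and these counts do not measure the power of the real comparison. The number of arrays limits the precision.

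The members and lists were chosen with earlier results of these data known. All members are accounted for, called members are given on every array, and of the other pathway genes all that passed are named, since they were 20 or fewer. Members with an unadjusted p under 0.05, paralogs and neighbours were added to the text after their values were seen. The 15 alternatives covered the filter, normalization, variance model, array weights, replicate number, probe set choice and each array left out. Figures were drawn with matplotlib 3.10.9.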

Additional observations from a re-analysis of the deposited data

How the results depend on the processing

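The calls of Sos1, Map2k1 and Stat3 held without the filter, with arrays centred on their median, with quantile normalization and with array weights. The count of members higher in 8KR cells was 1. It was 3 with a floor at a group mean above 5.0, 3 with an intensity trend, 3 with only single-symbol probe sets and 3 with the mean over a gene's probe sets. Leaving out 1 array gave 0 to 1 members higher and 0 to 0 lower. In all, 274 to 293 genes were then called, against 924 with all 6 arrays. Fewer arrays were fitted, and the part of this in the lower counts was not tested. Of the other pathway genes, 10 were called, 16 with the mean over probe sets, and 3 to 5 without 1 array. Without the filter Mras, Rheb and Rit1 had adjusted p of 0.0513, 0.0597 and 0.0609 by limma, and 7 were called.

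With the replicate number as a replicate block, 0 members were called higher, 0 lower and 0 other pathway genes, and 63 genes in all. Sos1, Map2k1 and Stat3 then had adjusted p of 0.105, 0.127 and 0.118 by limma. Over all probe sets tested, arrays of the same number did not deviate together (correlations of -0.01, 0.01 and 0.00). These correlations cannot show whether arrays of the same number were handled together.

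Over all 15 alternatives the log2 difference ran from 0.66 to 0.79 for Sos1, from -0.59 to -0.49 for Map2k1 and from -0.54 to -0.46 for Stat3. Centring arrays on their median turned Cbl to -0.00933 and Cblb to -0.0169. Leaving out 1 array turned the sign of 12 members with differences near 0, and the cause was not tested. Their log2 differences ran from -0.00112 to 0.113 for Akt1, -0.0243 to 0.120 for Araf, -0.0481 to 0.0776 for Cbl, -0.114 to 0.141 for Cblb, -0.0151 to 0.224 for Jak2, -0.109 to 0.0679 for Ksr1, -0.117 to 0.0665 for Map2k2, -0.0550 to 0.0730 for Pik3r2, -0.160 to 0.0619 for Prkca, -0.0880 to 0.124 for Rras, -0.0702 to 0.0233 for Sos2 and -0.0797 to 0.00986 for Stat6.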
